A study of Mus musculus with 4 samples.

Results

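Genes of the myelinating Schwann cell and of peripheral nerve myelin were examined on mouse expression arrays of the spinal cord and the duodenum. The set held 9 genes (Pmp22, Pmp2, Ncmap, Cldn19, Prx, Drp2, Gldn, Egr2 and Dhh), which were measured by 12 probes, out of the 32585 genes or transcript identifiers and 39429 probes of the array. The genes were chosen by their signals on these same arrays, with earlier results of the data known, so that their differences between the arrays are a description and none was tested. All 9 genes were found on the array, and each was identified through the RefSeq accession that the files give to its probe.

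Schwann cells wrap the axons of peripheral nerves, whereas oligodendrocytes make the myelin of the brain and spinal cord. Both cell types use Mbp and Mag, but Pmp22, Pmp2 and Prx are known chiefly from Schwann cells. The transcription factors Sox10 and Egr2 drive the myelin genes of the Schwann cell, and Dhh is the signal that Schwann cells send to the sheath of the nerve. The nerve roots that leave the spinal cord carry peripheral myelin.

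The series held 4 one-colour arrays, with 1 array for each genotype and tissue. The RNA came from spinal cord and duodenum of male mice aged 20 weeks, which were either labelled IP6K2-KO (hereafter KO) or were WT littermates. According to the methods of the study, the knockout lacks exon 6 of the gene, which encodes the kinase domain. All mice had grown up on the normal diet CE-2, received iVid-neo, a purified diet, during the last 1 week before a 48 h fast, and were killed after it. The labels do not say whether the RNA of an array came from 1 mouse or from a pool. With 1 array per genotype and tissue, no difference has a replicate check and no p-value was computed.

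Signals had a 75th percentile of 905 (WT) and 971 (labelled KO) in the spinal cord and of 68.0 and 323 in the duodenum. The share of probes well above background ranged from 51.6% on the WT duodenum array to 77.3% on the spinal cord array labelled KO. Values are therefore given as log2 of the processed signal minus the 75th percentile of the array. A technical SD was estimated for each difference from 357 probes that were spotted about 10 times on each array, and it covers spots within an array, not mice. The targeted gene went against its label. Spinal cord signals of Ip6k2 were 452 for WT and 1320 for the array labelled KO, a log2 difference of 1.45, and the duodenum difference was −0.21. The files do not place its probe relative to exon 6, and genotypes are given as labelled throughout. The tissue labels were borne out by marker genes. All 8 duodenum markers, among them Vil1, Fabp2 and Apoa4, were well above background on both duodenum arrays, and the 6 spinal cord markers that were found, among them Chat, Snap25 and Gfap, were well above background on both spinal cord arrays. The other 2 spinal cord markers were not matched to a probe. Some markers were well above background in the other tissue too. All 8 duodenum markers were at least 2-fold higher in the duodenum, with medians of 10.16 (WT) and 10.52 (labelled KO). The 6 spinal cord markers were at least 2-fold lower there, with medians of −3.52 and −5.21.

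The promoters of Prx, Cldn19 and Dhh are shown because these members had the largest differences between the spinal cord arrays. Each is the 250 bases before a transcription start in the RefSeq promoter table (build GRCm38.p6), in lower case with CpG dinucleotides in capitals. The Prx window lies at chr7:27499074-27499323 on the plus strand, the Cldn19 window at chr4:119255191-119255440 on the plus strand and the Dhh window at chr15:98898541-98898790 on the minus strand.
Prx: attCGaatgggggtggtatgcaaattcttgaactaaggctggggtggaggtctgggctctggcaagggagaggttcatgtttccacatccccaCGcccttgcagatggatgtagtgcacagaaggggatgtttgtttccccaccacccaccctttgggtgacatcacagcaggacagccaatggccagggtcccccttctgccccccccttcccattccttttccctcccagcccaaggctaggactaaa
Cldn19: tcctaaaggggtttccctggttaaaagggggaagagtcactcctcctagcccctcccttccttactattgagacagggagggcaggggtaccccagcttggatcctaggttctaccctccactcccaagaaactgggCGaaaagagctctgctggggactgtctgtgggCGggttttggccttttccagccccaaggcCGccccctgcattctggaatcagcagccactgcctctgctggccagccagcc
Dhh: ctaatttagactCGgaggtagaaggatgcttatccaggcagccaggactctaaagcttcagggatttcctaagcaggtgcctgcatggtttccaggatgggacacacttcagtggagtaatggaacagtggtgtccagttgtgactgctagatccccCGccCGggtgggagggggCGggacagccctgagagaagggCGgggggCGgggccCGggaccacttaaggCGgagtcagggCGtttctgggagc

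The windows of Prx and Cldn19 held 2 and 3 CpG dinucleotides and that of Dhh held 9, against a median of 6 over 32851 windows of all genes. Their GC content was 56.4%, 59.2% and 59.6%, against a median of 52.4%. The table held 16 windows for 7 of the members and none for Pmp2 and Drp2. Both strands of the windows, extended to the full 300 bases of the table, were searched for GCGNGGGCG, a motif of the EGR family, and for ACAAAG, a motif of the SOX family. Of all windows, 5.55% held the first and 18.7% the second. Neither was found in the 16 windows of the members, which says only that these letters are not there.

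In the spinal cord, the members were higher on the array labelled KO. Of the 9 genes, 8 were well above background on both arrays and were higher on the array labelled KO by 0.70 to 5.23 on the log2 scale, and Pmp2 was well above background there alone. At least 2-fold higher were 7 members (Prx, Cldn19, Dhh, Egr2, Pmp22, Drp2 and Ncmap) and 0 were 2-fold lower. Over all 25217 genes tested, 2.28% were at least 2-fold higher and 0.864% were at least 2-fold lower. Since the members were chosen with these values known, the counts describe the set and nothing is read from them. The median of the members was 1.98, and that of the 24166 genes measured on both spinal cord arrays was −0.04. In this bulk RNA, a different number of cells of a type and a different amount of RNA per cell cannot be told apart.

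**Figure D1:**
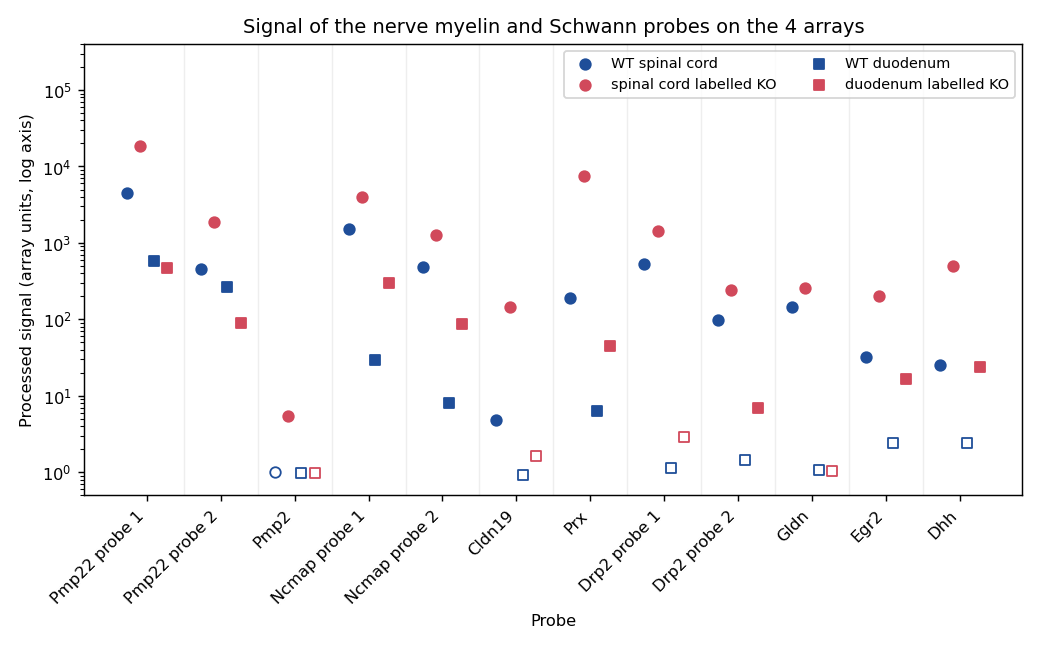
Processed signal (array units, log axis) of each of the 12 probes on the 4 arrays, with 1 point per array. Circles are spinal cord and squares are duodenum, blue is WT and red is labelled KO, and open symbols are not well above background. The red circle lies above the blue circle for every probe, and most open symbols are squares.

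Pmp22, a tetraspan protein of compact myelin, was the brightest member. Its first probe had spinal cord signals of 4447 for WT and 18813 for the array labelled KO, and duodenum signals of 577 and 475 in the same order. The spinal cord difference was 1.98 (technical SD 0.058), or 3.94-fold. A second Pmp22 probe gave 458 and 1897 in the spinal cord and a difference of 1.95, so that the probes gave differences of similar size. Pmp2, a fatty acid binding protein of the myelin membrane, had a signal of 5.48 on the spinal cord array labelled KO and of 0.98 to 1.01 on the other arrays, where it was not well above background. It was at least 1.14-fold higher on the array labelled KO, a bound close to no difference.

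Ncmap, a small membrane protein of noncompact Schwann cell myelin, had spinal cord signals of 1514 for WT and 3981 for the array labelled KO. The difference was 1.29 (technical SD 0.056), and its second probe, with signals of 484 and 1289, gave 1.31. Cldn19, the claudin of the tight junctions of Schwann cell myelin, had spinal cord signals of 4.77 for WT and 145.7 for the array labelled KO. The difference of 4.83 (technical SD 0.35) was the third largest of all genes with a value, but the WT signal lay close to 4.47, the lowest signal well above background on that array.

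Prx, which encodes periaxin, the scaffold that ties the Schwann cell membrane to the dystroglycan complex, had the largest difference among the members. Its spinal cord signals were 187.8 for WT and 7564 for the array labelled KO, a difference of 5.23 (technical SD 0.067), or 37.5-fold. Drp2, the dystrophin related partner of periaxin, was higher by less. Its first probe gave 524 and 1423, a difference of 1.34 (technical SD 0.060), and its second gave 98.8 and 239, a difference of 1.17. Gldn, which encodes gliomedin, a Schwann cell ligand that gathers sodium channels at the node of Ranvier, differed least among the members measured on both arrays. Its signal went from 146.5 to 254.7, a difference of 0.70 (technical SD 0.076), which is under 2-fold.

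Egr2, the transcription factor of the myelinating Schwann cell, had spinal cord signals of 32.3 for WT and 199.6 for the array labelled KO, a difference of 2.53 (technical SD 0.10). Dhh, the desert hedgehog ligand, had signals of 25.6 and 493, a difference of 4.17 (technical SD 0.10), or 17.9-fold. There were 8 genes with a larger difference than Dhh and 98 with a larger one than Egr2, among 25179 with a value. The corresponding number was 158 for Pmp22, 347 for Drp2, 373 for Ncmap and 1020 for Gldn.

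**Figure D2:**
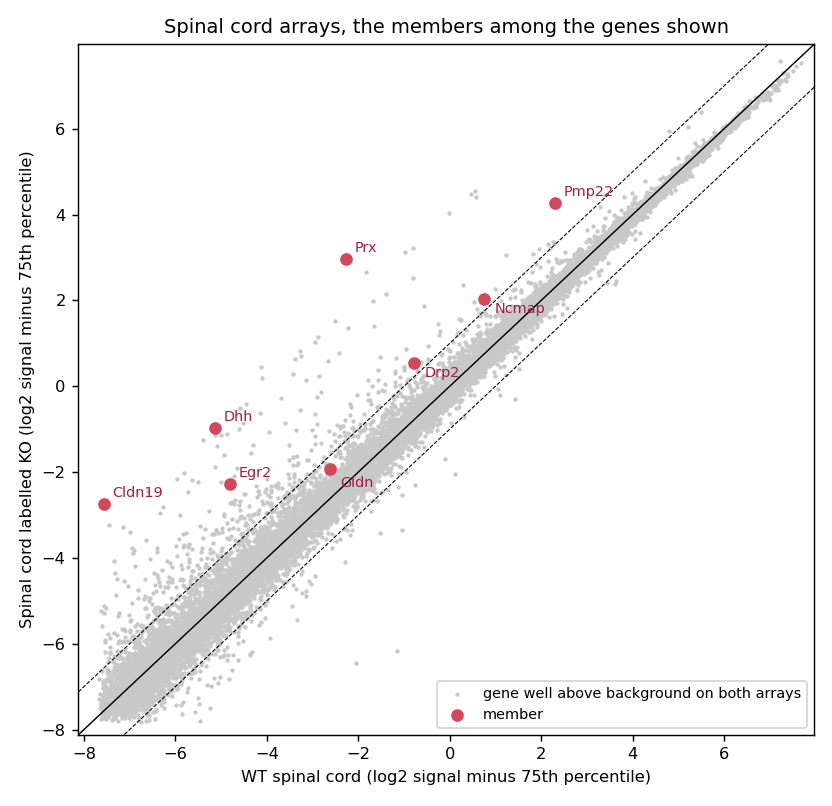
Normalized log2 values on the spinal cord array labelled KO (vertical axis) against the WT spinal cord array (horizontal axis), for genes well above background on both (1 point per gene, apart from the 2 genes not reported). Red points are the 8 members measured on both arrays and grey points are other genes. The solid line marks equal values and the dashed lines 2-fold differences, and 7 red points lie above the upper dashed line.

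The size of the differences depended on the background correction for the dimmer members. The normexp correction uses the local background of each spot. With it, Cldn19 differed by −0.64, Egr2 by −0.31 and Gldn by −0.45, so that their direction turned, and Dhh was higher by 0.88. Under this correction the median gene itself was at −0.45, against −0.04 without it. Relative to the median gene, Egr2 was thus higher, Gldn about level and Cldn19 lower. The first Drp2 probe was higher by 0.86, under 2-fold, and the second turned to −0.64. On the WT spinal cord array the highest local background was 15708, whereas it was 36.5 to 47 on the other arrays. When flagged local backgrounds were replaced by the median of the array before the same correction, the direction returned, with 1.68 for Cldn19, 1.54 for Egr2, 0.56 for Gldn, 2.80 for Dhh and 1.13 and 0.73 for the Drp2 probes. Prx was higher by 3.98 and 4.82 under these corrections. Taken at the first probe or the mean of probes, Pmp22 was higher by 1.81 to 2.44 under all 10 alternatives that give it a value. Ncmap was higher by 1.12 to 1.46 in the same way. The filters on dim probes cannot move these values. The second probes of Pmp22 and Ncmap were higher by 1.57 and 1.05 under normexp, and by 1.78 and 1.14 on the spiked-in scale.

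**Figure D3:**
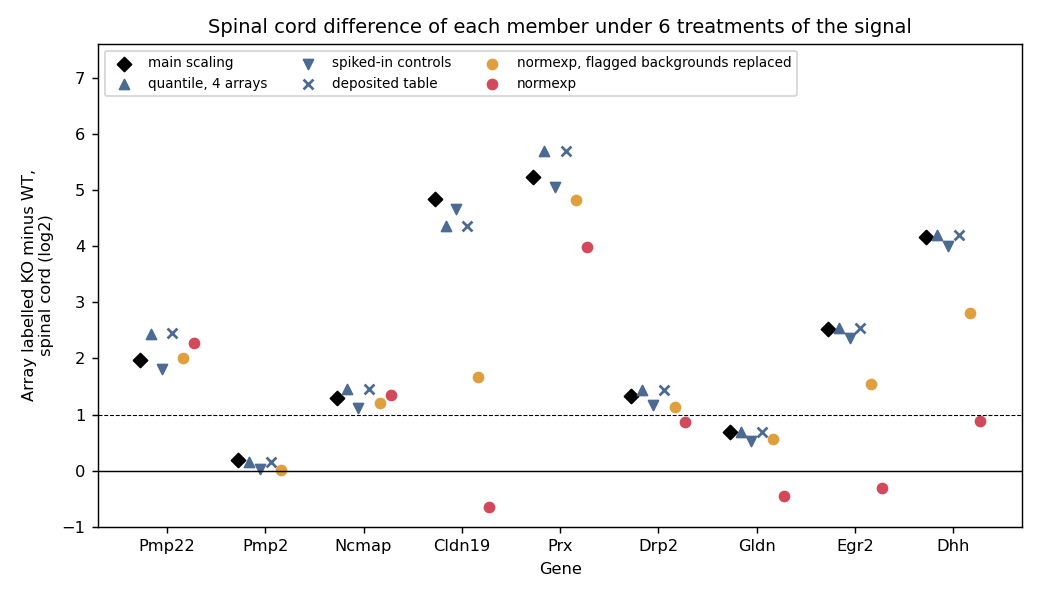
Log2 difference between the spinal cord array labelled KO and the WT array for each member (vertical axis) under 6 treatments of the signal, with 1 symbol per treatment. The value of Pmp2 is a lower bound, and it has none under plain normexp. The dashed line marks 2-fold, and the red points of Cldn19, Gldn and Egr2 lie below 0.

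Most of the partner genes reported here differed by less than 2-fold in the spinal cord. Of the 8 other compact and noncompact myelin genes, 0 were at least 2-fold higher, with a median of 0.11 and a range of −0.01 to 0.86. The highest was Cd9, a tetraspanin, which passed 2-fold under normexp (1.18), under quantile normalization of the 4 arrays (1.03) and in the deposited table (1.03). Mbp, Mag and the connexin gene Gjb1 differed by 0.17, 0.04 and 0.54. Oligodendrocytes also make Mbp and Mag. Gjb1 was bright in the duodenum as well, with signals of 2711 for WT and 6366 for the array labelled KO.

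Dag1, the dystroglycan to which periaxin is linked through Drp2, differed by 0.23. Of the 11 genes listed for the dystroglycan and basal lamina complex 0 were 2-fold higher, with a median of 0.21. The same held for 0 of 10 genes of the node of Ranvier and axon contact, with a median of −0.04, where Nfasc and Nrcam, the axonal partners of gliomedin, differed by −0.05 and −0.16.

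Among the transcription factors listed for Schwann cells, Sox10 was higher by 0.76 and Nab2, a cofactor of Egr2, by 0.15, while Pou3f1 differed by −0.19. Of these 10 genes 0 were 2-fold higher, and their median was 0.22. Sox10 passed 2-fold under normexp, at 1.00. For neuregulin and adhesion receptor signalling, in which neuregulin sets myelin thickness, the count was 0 of 8 with a median of 0.19. The receptor genes Erbb2 and Erbb3 differed by 0.93 and 0.64 at WT signals of 28.2 and 15.7, and the ligand Nrg1 by 0.01. The receptor of Dhh, Ptch1, differed by 0.18 and the pathway target Gli1 by −0.16, and 0 of 10 hedgehog genes were 2-fold higher, with a median of −0.12. For immature and nonmyelinating Schwann cells the count was 1 of 11 with a median of 0.04. The 1 gene was the sodium channel gene Scn7a, with signals of 10.2 and 25.8 and a difference of 1.24, which was −2.08 under normexp and 0.16 with flagged backgrounds replaced. Ngfr and S100b differed by 0.04 and −0.08. Under normexp 4 of the 8 neuregulin and adhesion genes, 3 of the 10 hedgehog genes and 4 of these 11 genes were at least 2-fold lower, and 0 of them were with flagged backgrounds replaced. The median gene was at −0.45 under normexp, and the share of all genes past 2-fold under it is not given here. Nothing about these lists is read from those counts.

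Markers of other tissues also differed between the spinal cord arrays. All 12 skeletal muscle genes listed were at least 2-fold higher on the array labelled KO, with a median of 3.98. Their summed level relative to the 75th percentile was 5.54 for WT and 86.8 for the array labelled KO. The creatine kinase gene Ckm was higher by 4.58, the actin gene Acta1 by 4.48 and the troponin gene Tnnt3 by 4.12. The muscle median was 2.67 under normexp and 3.53 with flagged backgrounds replaced. Of 11 genes with a value for meninges and nerve fibroblasts, 7 were at least 2-fold higher, with a median of 1.04, and these included Foxc2 (2.10), Col3a1 (2.05) and Dcn (1.83). Their summed level was 146.5 for WT and 137.3 for the array labelled KO, and most of it came from the prostaglandin synthase gene Ptgds, which differed by −0.20. Under normexp, where the median gene was at −0.45, 1 of the 11 was 2-fold higher and the median was 0.17.

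Red blood cell genes were at least 2-fold higher in 4 of 6 cases, with a median of 1.18 and summed levels of 227.6 and 350.9. Adipocyte genes were 2-fold higher in 2 and 2-fold lower in 2 of 7 cases, with a median of −0.98 and summed levels of 1.63 and 2.15, and they included Ucp1 (−5.02) and Car3 (2.69). Oligodendrocyte genes had a median of 0.17 with 0 of 14 at 2-fold and summed levels of 98.7 and 109.9. Sensory ganglion neuron genes had a median of −0.05 over 8 genes with a value, with summed levels of 0.865 and 0.946, and Scn10a and Mrgprd were not well above background on either spinal cord array. Enteric neuron and glia genes had a median of −0.01, the spinal cord markers one of −0.04, and 1 of the 4 duodenum markers with a value was 2-fold higher. The part of muscle, connective tissue or blood in the differences of the members was not tested.

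**Figure D4:**
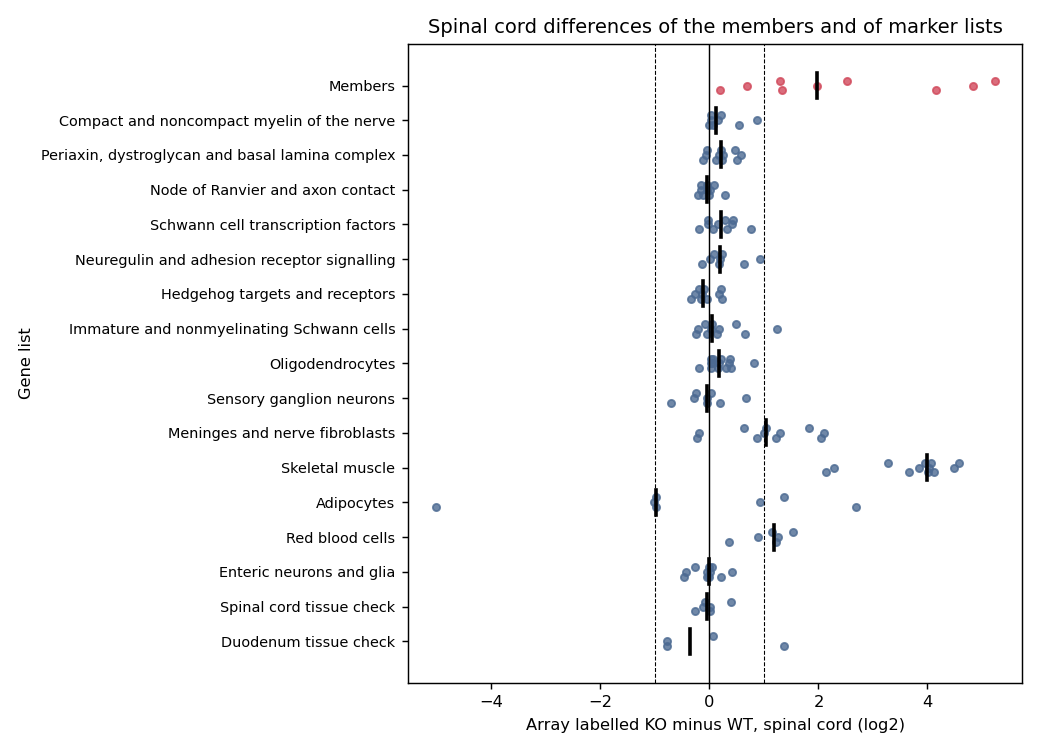
Log2 difference between the spinal cord array labelled KO and the WT array (horizontal axis) for each gene with a value in the members and in 16 gene lists (vertical axis). Each point is a gene, including lower bounds, each black bar is the median of its list, and the dashed lines mark 2-fold. The medians of the members (1.98) and of skeletal muscle (3.98) lie farthest to the right.

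In the duodenum, few members could be measured. Well above background were 3 of 9 for WT and 5 of 9 for the array labelled KO. Under the 75th percentile scaling, Pmp22 and Ncmap differed in opposite directions at both of their probes, which did not hold for single probes under the normexp corrections and the spiked-in scaling given next. Ncmap had duodenum signals of 29.2 for WT and 297.7 for the array labelled KO, and after scaling it was higher by 1.11 (technical SD 0.12), with 1.19 for its second probe. Under both normexp corrections it was higher by 0.40, and the second probe differed by −0.41. Pmp22 was lower on the array labelled KO by 2.53 (technical SD 0.073), a difference of −2.53, and by −3.80 at its second probe, although the unscaled signals of the first probe were 577 and 475. With the arrays scaled on spiked-in control probes, where the median gene was shifted by 2.89, the first probe differed by 0.47 and the second by −0.80. Prx had signals of 6.27 and 45.5 and a difference of 0.61 (technical SD 0.26), which was −0.88 under both normexp corrections.

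The remaining members were close to the background there. Dhh had a signal of 24.2 on the duodenum array labelled KO and was not well above background on the WT array, which makes it at least 1.19-fold higher. Egr2 had 16.4 on the array labelled KO against 2.43, not well above background, on the WT array, and its bound was under 1. Cldn19, Gldn and Pmp2 and the first probe of Drp2 were not well above background on either duodenum array. In all, 1 of the 4 members with a value was at least 2-fold higher and 1 was at least 2-fold lower. Over the 21435 genes tested, the shares were 7.20% and 11.9%. The genes tested include those with a bound under 1, whereas the 4 members leave out Egr2, which has such a bound. All 6 red blood cell genes were 2-fold lower on the duodenum array labelled KO, with a median of −3.39, and of the 4 skeletal muscle genes with a value 0 were 2-fold higher and 1, Ckm (−1.40), was 2-fold lower. Their part in the values of the members was not tested.

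Between the tissues, most members that could be measured were lower in the duodenum. These comparisons share arrays with those above, and their values depend on the scaling. Under the 75th percentile scaling the median gene was higher in the duodenum by 0.63 on the WT arrays and by 0.30 on those labelled KO. On the WT arrays Ncmap differed by −1.96 and Prx by −1.17, Drp2 was at least 9.18-fold lower by its first probe and at least 1.73-fold by its second, and Gldn was at least 2.56-fold lower. With Drp2 taken at its first probe, that gave 4 of the 5 members with a value at least 2-fold lower, against 23.1% of the 25219 genes tested. Those genes include ones with a bound under 1, whereas the 5 members leave out Cldn19, Egr2 and Dhh, which have such a bound. Pmp22 was not among the 4 lower members, with a difference of 0.79 at the first probe and 2.95 at the second. The difference of the first probe was −1.97 after quantile normalization within each tissue and −4.25 on the spiked-in scale. The median gene was at −2.08 and −4.41 under these scalings, a shift of the whole arrays. Quantile normalization within each tissue does not put the tissues on a common scale. Prx differed by 0.20 and 1.05 under the normexp corrections.

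On the arrays labelled KO all 8 members with a value were at least 2-fold lower in the duodenum, against 25.4% of the 25727 genes tested. Those genes include ones with a bound under 1, whereas the 8 members leave out Pmp2, which has such a bound. Prx differed by −5.79, or 55.2-fold, and Pmp22 by −3.72. The Drp2 probes gave unlike values, with at least 109.1-fold lower for the first and a measured 11.3-fold for the second. Gldn was lower by at least 19.5-fold and Cldn19 by at least 11.2-fold. Dhh differed by −2.76, Ncmap by −2.15 and Egr2 by −2.01. The 8 members kept this direction under each alternative that gave them a value.

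The genes with the profile nearest to that of the members were sought among 24775 genes that were well above background on the spinal cord array labelled KO. Likeness was the Euclidean distance over the 4 arrays between a gene's log2 values, centred on their mean, and the median centred profile of the members, which was −0.88 in WT spinal cord, 1.76 on the spinal cord array labelled KO, −0.29 in WT duodenum and −1.09 on the duodenum array labelled KO. Values under the detection limit of an array, its lowest value well above background, were raised to that limit. The duodenum values of the profile are those of Gldn and Cldn19, which were raised in this way, so that the distances rest in part on the limit. The nearest were Atp2a1 (distance 0.55), Mylk2 (0.71), Sirpb1b (0.77), Dusp13 (0.77) and Sirpb1a (0.92). Of the members, Egr2 lay at 0.69 from the median profile and the others at 1.37 to 4.13, farther than the genes just named. These genes are thus near the median profile and not near each member. Atp2a1, also 1 of the 12 skeletal muscle genes above, encodes the calcium pump of fast muscle fibres and Mylk2 a myosin kinase of skeletal muscle. The spinal cord differences were 2.29 for Atp2a1, 3.42 for Mylk2, 1.63 for Sirpb1b, 1.91 for Dusp13 and 1.58 for Sirpb1a.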

How the data were processed

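RNA of spinal cord and duodenum was hybridized to 4 Agilent one-colour mouse arrays on 1 slide. The authors deposited scanner output from Agilent Feature Extraction 11.5.1.1, in which the intensity of each spot is given as a processed signal, with the background subtracted and spatial trends removed, and also log2 values in a table. The deposited log2 table matched log2 of that signal, floored at 1 and quantile-normalized over the 4 arrays. The genes examined and all gene lists were chosen with earlier results of these data known. Control spots and outlier flags were dropped, spots of a probe were averaged, and log2 of the processed signal minus the array's 75th percentile was used. A gene was represented by its brightest probe. A probe well above background on 1 of the arrays compared has a bound, for which the dim value was raised to the array's lowest value well above background where it lay under it. Accessions were named through the RefSeq table, which matched 25868 of 26391 NM accessions' probes. Calls were at 2-fold. Normexp used an offset of 50 (limma 3.58.1, R 4.3.3). The remaining steps ran in Python 3.11.15 (pandas 2.3.3). Named genes were all members, their known partners and, from each other list, up to 3 genes with the largest spinal cord differences. Of the genes listed, 2 are not reported here and were left out of the list counts. The alternatives were normexp with and without replaced backgrounds, quantile, median and spiked-in scalings, the deposited values, averaging of probes, filters on dim probes and a 1.5-fold threshold. The number of arrays limits the precision.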

Additional observations from a re-analysis of the deposited data

Results flagged for a closer look

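Pmp22 moved in opposite directions in the tissues. It was higher on the spinal cord array labelled KO by 1.98 and lower on the duodenum array labelled KO, with a difference of −2.53, and these lie −4.51 apart on the log2 scale. The difference between the tissues was not tested, since each group is 1 array. On the spiked-in scale the duodenum difference was 0.47, where the median gene was at 2.89. The second probe differed by 1.95 in the spinal cord and by −3.80 in the duodenum. Its duodenum difference on the spiked-in scale was −0.80.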

How the results depend on the processing

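With 1 array per genotype and tissue leaving out a replicate was impossible. No paired analysis was possible because each group holds 1 array. Dim probes have only bounds, and the cause of the changes below was not tested. Of 248 single values and alternatives, 111 moved by less than the technical SD, 127 by more and 10 turned direction. Part of the 111 was fixed in advance. The filters on dim probes cannot move a value measured on both arrays, and averaging of probes cannot move a gene with 1 probe. The tally is therefore no measure of how stable the values are.

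In the spinal cord, the median of the members was 0.87 under normexp with 3 members at least 2-fold higher, 1.54 with flagged backgrounds replaced, 2.44 under quantile normalization of the 4 arrays and in the deposited table, 1.81 on the spiked-in scale, 2.25 with both arrays well above background and 2.34 without a filter. Under normexp Cldn19 differed by −0.64, Gldn by −0.45 and Egr2 by −0.31. The median gene was at −0.45 under normexp and at −0.05 with flagged backgrounds replaced.

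In the duodenum (main median 0.43), the median was −0.88 under both normexp corrections, with 0 members higher and Prx at −0.88. On the spiked-in scale, where the median gene was at 2.89, it was 3.25, with 4 higher, 0 lower and Pmp22 at 0.47. It was 0.64 with 2 higher in the deposited table, 0.61 with both arrays well above background, and −0.93 with 2 higher and 4 lower without a filter. At 1.5-fold, 2 were higher.

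Between the WT tissues (main median −1.36, 4 lower), the median was −0.14 under normexp and −0.026 with flagged backgrounds replaced, each with 1 lower and the latter with 1 higher, and Prx differed by 0.20 and 1.05. It was −1.17 under quantile normalization of the 4 arrays, −3.84 with 7 lower under quantile normalization within a tissue, where Pmp22 differed by −1.97, −1.14 with 1 higher under median centring, −5.23 with 8 lower on the spiked-in scale, where Pmp22 differed by −4.25, −1.60 in the deposited table, −1.17 with 2 lower with both arrays well above background, and −0.0010 with 2 higher without a filter. The mean of probes and the 1.5-fold threshold each gave 1 higher. The median gene was at −2.08 under quantile normalization within a tissue and at −4.41 on the spiked-in scale.

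Between the tissues labelled KO (main median −3.60, 8 lower), the median was −1.80 with 5 lower under both normexp corrections, −3.48 under quantile normalization of the 4 arrays, −5.87 within a tissue, −3.33 under median centring, −5.35 on the spiked-in scale, −4.26 in the deposited table, −3.37 for the mean of probes, −2.76 with 5 lower with both arrays well above background and −3.72 without a filter. The median gene was at −2.31 under quantile normalization within a tissue and at −1.57 on the spiked-in scale.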
